A study of Mus musculus with 6 samples.

Results

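The genes described here encode the 4 ERBB receptors and 6 of the ligands that bind them. They were taken by gene symbol from a list of 10 names, *Egfr*, *Erbb2*, *Erbb3*, *Erbb4*, *Ereg*, *Areg*, *Btc*, *Nrg1*, *Tgfa* and *Hbegf*, and all 10 were found among the 23366 genes counted. RNA-sequencing was performed on sorted epithelial cells of the small intestine of mouse embryos at embryonic day 13.5 (E13.5). Of the 6 libraries, 3 came from wild type embryos and 3 from embryos of the genotype Shh-cre-egfp:Tcf7l1 lox/lox, referred to as mutant. The input of a library was 500 live cells sorted for EpCAM, a surface protein of epithelial cells. In the mutants, Cre is expressed from the *Shh* locus in the gut epithelium and deletes the floxed part of *Tcf7l1*, a TCF family transcription factor that mostly represses WNT target genes. The comparison of mutant with wild type asks what changes in the epithelium when *Tcf7l1* is lost. A control with Cre and an intact *Tcf7l1* is not described, and none of the embryos was given a treatment.

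ERBB receptors are receptor tyrosine kinases of the cell surface that pair with each other after binding a ligand and then start the RAS to ERK and the PI3K to AKT cascades inside the cell. The ligands are made as membrane proteins and are cut free by ADAM proteases. AREG and TGFA bind EGFR, while EREG, BTC and HBEGF bind both EGFR and ERBB4, and NRG1 binds ERBB3 and ERBB4. ERBB2 has no known soluble ligand and acts as a partner of the other receptors, whereas ERBB3 has a kinase domain of very low activity and signals through its partners. In the adult intestine, EGF is a growth factor for crypt cells, and LRIG1 limits ERBB signalling in stem cells.

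Promoters are shown for *Areg*, which was higher in the mutants, for *Tgfa*, which was lower, and for *Btc*, a neighbour of *Areg* that was not called. Of the 10 genes, 6 were matched to a RefSeq table of promoters on build GRCm38.p6, each 300 bases long, with 250 bases before the transcription start and 50 after it. Entries for *Ereg*, *Erbb3*, *Hbegf* and *Nrg1* were not used here. The sequences are written 5′ to 3′ on the strand of the gene, with matches to the motifs named below in capitals. That of *Areg* is chr5:91139349-91139648 on the plus strand, that of *Tgfa* is chr6:86194972-86195271 on the plus strand, and that of *Btc* is chr5:91402945-91403244 on the minus strand.
*Areg*: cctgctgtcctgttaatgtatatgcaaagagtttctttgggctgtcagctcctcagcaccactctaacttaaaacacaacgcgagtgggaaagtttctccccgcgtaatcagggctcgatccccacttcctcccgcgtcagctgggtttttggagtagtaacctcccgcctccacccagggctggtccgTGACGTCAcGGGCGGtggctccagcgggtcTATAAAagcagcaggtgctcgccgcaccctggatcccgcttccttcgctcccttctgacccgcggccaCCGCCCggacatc
*Tgfa*: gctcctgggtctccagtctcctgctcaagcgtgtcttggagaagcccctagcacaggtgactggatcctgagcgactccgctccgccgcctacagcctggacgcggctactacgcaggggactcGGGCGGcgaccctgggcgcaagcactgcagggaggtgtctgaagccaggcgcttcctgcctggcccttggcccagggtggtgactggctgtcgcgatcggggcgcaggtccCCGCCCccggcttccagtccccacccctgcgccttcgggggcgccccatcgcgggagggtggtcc
*Btc*: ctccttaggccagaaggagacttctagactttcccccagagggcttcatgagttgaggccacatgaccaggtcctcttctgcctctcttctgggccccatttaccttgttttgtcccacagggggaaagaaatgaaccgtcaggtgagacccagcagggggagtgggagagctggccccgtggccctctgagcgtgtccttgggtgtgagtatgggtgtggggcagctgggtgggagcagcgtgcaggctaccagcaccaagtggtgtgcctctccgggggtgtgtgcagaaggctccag

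In these windows, 6 motifs were searched on both strands, chosen after the expression values were seen. The *Areg* window holds the letters TGACGTCA, known as the cyclic AMP response element, from base -61 to -54 before the start, and the letters TATAAA, the TATA box, from -31 to -26. Of all 32851 promoters in the table, 1.79% hold TGACGTCA and 13.6% hold TATAAA, and of the 6 matched ones only that of *Areg* does in each case. The GC box letters GGGCGG are found in the windows of *Areg*, *Tgfa* and *Egfr* and in 35.7% of all promoters. None of the 6 windows holds CTTTGAT or CTTTGTT, forms of the TCF motif found in 3.73% and 5.85% of all promoters, or the AP-1 motif TGANTCA, found in 7.81%. No overlap between motifs was seen in the printed windows. The *Tgfa* window is 70.7% G and C, against 59.3% for *Areg*, 60.3% for *Btc* and 53.8% over all promoters. These are matches of letters and no measure of binding.

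The total count lay between 18216537 and 20397278 in the 6 libraries, and 12501 genes passed the filter on low counts and were tested with edgeR's quasi-likelihood test. The summed level of 10 epithelial markers was between 8189 and 8964 CPM in all libraries. CPM are counts scaled to an equal library total, which was taken over the tested genes and adjusted by TMM. Of the 10, 4 (*Cdh1*, *Krt18*, *Cdx2* and *Shh*) were called lower in the mutants and 0 higher, beside 5.83% and 2.78% of all tested genes. *Epcam* (log2 fold change 0.25, SE 0.07) and *Cldn7* (0.24, SE 0.06) were higher in every mutant library and not called. *Krt8* (-0.32, SE 0.06) and *Krt19* (-0.49, SE 0.06) were lower in every mutant library and not called either. The groups overlapped for *Cldn3* and *Vil1*. The 9 neural crest markers summed to between 10.03 and 15.1 CPM and 12 mesenchymal markers to 3.12 to 16.7 CPM. Of 6 endothelial and 6 blood markers, 4 and 3 had no count in any library, and either list summed to at most 1.11 CPM. Of 5 markers of mesothelium, which summed to 39.7 to 50.02 CPM in wild type and 29.1 to 40.3 CPM in the mutants, *Msln* and *Upk1b* were called lower in the mutants, while *Upk3b*, the most abundant, was not called and had 373 and 487 normalized counts (log2 fold change 0.39, SE 0.18). *Tcf7l1*, the deleted gene, was at 437 ± 63.9 normalized counts in wild type against 49.0 ± 21.0 in the mutants (SD, n = 3), a log2 fold change of -3.16 (SE 0.26), and *Shh* fell from 480.2 ± 65.7 to 197 ± 22.6 (log2 fold change -1.28, SE 0.17). *Xist* had 237, 451 and 319 normalized counts in the mutant libraries and 0 in each wild type library, and *Ddx3y*, *Eif2s3y*, *Uty* and *Kdm5d* on the Y chromosome had 0 in each mutant library and counts in each wild type library. In any difference between the groups, the loss of *Tcf7l1* cannot be told apart from the sex of the embryos, the Cre allele or the lower level of *Shh*. By the chi-square of counts, wild type 3 stood apart from wild type 1 and 2, at 16.6 and 18.6 per gene against 8.62 between these, and it was nearer than they were to each mutant library. Without it, 516 genes were called higher and 867 lower, against 348 and 729. As the libraries are bulk samples, fewer cells that express a gene and less RNA per cell cannot be told apart either.

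Of the 10 genes, 8 passed the filter, and *Erbb4* and *Nrg1* did not. *Areg* and *Hbegf* were called higher in the mutants, *Tgfa* was called lower, and *Egfr*, *Erbb2*, *Erbb3*, *Ereg* and *Btc* were not called. For a call, the adjusted p had to be below 0.01, the log2 fold change 0.5 or more in either direction, and the mean over the 6 libraries no lower than 50 normalized counts. Over all tested genes, 2.78% were called higher and 5.83% lower. Of the 8 tested, 3 genes (*Egfr*, *Areg* and *Hbegf*) were higher in every mutant library than in any wild type library, beside 20.8% of all tested genes. Another 3 (*Erbb2*, *Erbb3* and *Tgfa*) were lower in every mutant library, beside 22.2%, so that 6 had groups without overlap, beside 43% of all tested genes. The median log2 fold change of the 8 genes was 0.03, beside -0.04 over all tested genes.

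**Figure D1:**
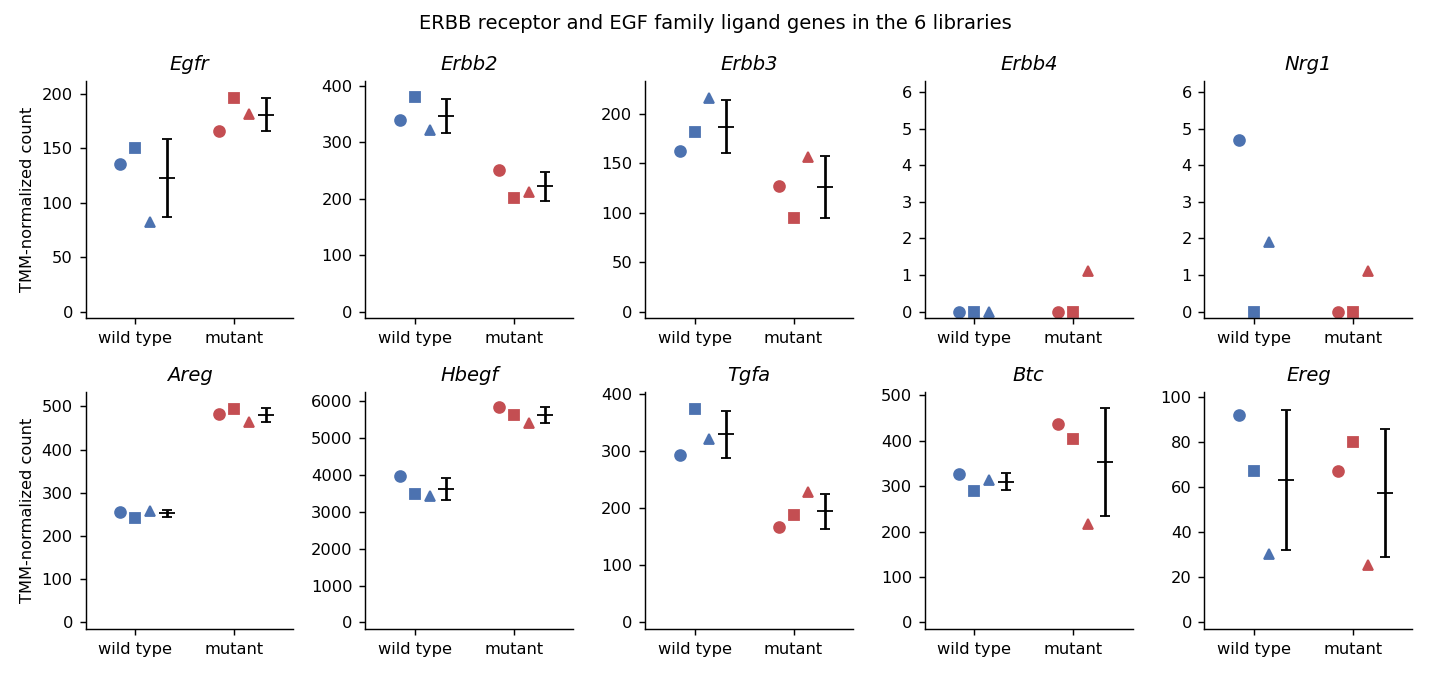
TMM-normalized counts (vertical axis, from 0 in each panel) of the 10 genes in 3 wild type (blue) and 3 mutant (red) libraries, with circles, squares and triangles for libraries 1, 2 and 3 and black bars for the mean ± SD, left out for *Erbb4* and *Nrg1*. *Areg* lies between 242 and 259 in wild type and between 464 and 494 in the mutants, while the groups of *Btc* and *Ereg* overlap.

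*Hbegf* encodes heparin-binding EGF-like growth factor, which is bound by heparan sulphate on cell surfaces. It had 3966, 3478 and 3426 normalized counts in wild type 1, 2 and 3, against 5839, 5621 and 5408 in mutant 1, 2 and 3. The lowest mutant library was above the highest wild type library. *Hbegf* rose by a log2 fold change of 0.63 (SE 0.08, 95% interval 0.47 to 0.79), or 1.55-fold, with a Benjamini-Hochberg adjusted p of 2.3e-05 in edgeR's quasi-likelihood test. Leaving out any 1 library gave values between 0.61 and 0.70. Of the 8 tested genes, *Hbegf* had the smallest p.

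*Areg* (ENSMUSG00000029378, chromosome 5, 91568641 to 91577458 of mm9, plus strand) encodes amphiregulin, a ligand of EGFR that is known for its part in epithelial growth and repair. Normalized counts were 255, 242 and 259 in wild type 1, 2 and 3, against 484, 494 and 464 in mutant 1, 2 and 3. Both groups were tight, with an SD of 9.01 around a mean of 252 in wild type and of 15.5 around 480.4 in the mutants. The log2 fold change of *Areg* was 0.93 (SE 0.15, 95% interval 0.62 to 1.24), or 1.91-fold (edgeR, adjusted p = 3.0e-04), and lay between 0.90 and 0.96 with each library left out. The groups did not overlap in the raw counts either, with 260 to 273 in wild type and 420 to 468 in the mutants.

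*Tgfa* (ENSMUSG00000029999, chromosome 6, 86145420 to 86225151, plus strand) encodes transforming growth factor alpha, which also binds EGFR. It had 293, 374 and 321 normalized counts in wild type 1, 2 and 3, against 167, 188 and 227 in mutant 1, 2 and 3. The highest mutant library was below the lowest wild type library. *Tgfa* fell by 0.76 on the log2 scale (SE 0.18, 95% interval -1.15 to -0.37), which is 1.69-fold lower (edgeR, adjusted p = 0.0064). The call of *Tgfa* was kept without mutant 3 and lost without wild type 1 (adjusted p = 0.0135), wild type 2 (0.0375), wild type 3 (0.0103), mutant 1 (0.0343) or mutant 2 (0.0266). A correction for gene length, which shifted the median of all genes by 0.14 on the log2 scale, gave -0.55 (edgeR, adjusted p = 0.0305), but the call was kept when the common shift was taken out of this correction (-0.75, adjusted p = 0.0079).

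*Btc* (ENSMUSG00000082361, chromosome 5, 91786287 to 91831939, minus strand) encodes betacellulin. Its normalized counts were 327, 289 and 313 in wild type 1, 2 and 3, against 436, 405 and 216 in mutant 1, 2 and 3. Mutant 1 and 2 lay above all wild type libraries and mutant 3 below them. The log2 fold change of *Btc* was 0.19 (SE 0.22, 95% interval -0.27 to 0.64), with an adjusted p of 0.56 from edgeR, and 0.44 without mutant 3 (adjusted p = 0.0846), 0.01 without mutant 1 and 0.08 without mutant 2.

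*Ereg* (ENSMUSG00000029377, chromosome 5, 91503643 to 91522675, plus strand) encodes epiregulin. Normalized counts were 91.7, 67.0 and 30.3 in wild type 1, 2 and 3, against 67.2, 79.7 and 25.4 in mutant 1, 2 and 3. The spread within each group was far larger than the difference between the means, and library 3 was the lowest of both groups. The log2 fold change was -0.13 (SE 0.46, 95% interval -1.11 to 0.84; edgeR, adjusted p = 0.86), and it was positive without wild type 1 (0.24) and if mutant 3 was left out (0.22). *Ereg* had 23 to 98 raw counts in a library. The 95% interval is wide, and neither a rise nor a fall within it can be excluded.

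*Nrg1* (ENSMUSG00000062991, chromosome 8, 32928500 to 33119581, minus strand) encodes neuregulin 1. It had 5, 0 and 2 raw counts in wild type 1, 2 and 3, against 0, 0 and 1 in mutant 1, 2 and 3, too few to test. Of its exon bases, 3.11% also lie in exons of a gene read from the other strand. Of the ligands outside the 10 genes, *Egf* had 10.2 to 22.8 normalized counts in the 6 libraries, while *Epgn* had 0 to 11, *Nrg4* 6 to 14, *Nrg3* 0 to 4 and *Nrg2* 0 to 2 raw counts.

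**Figure D2:**
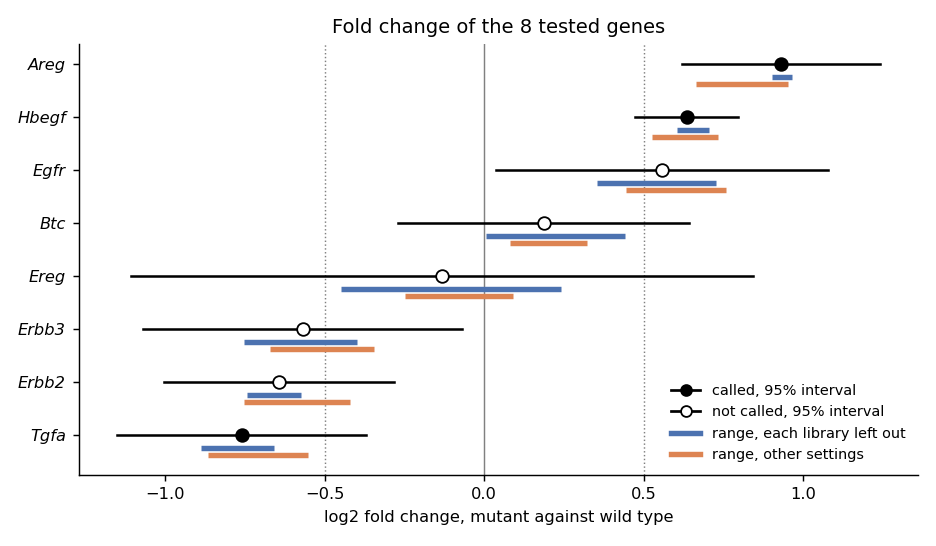
Log2 fold change of mutant against wild type (horizontal axis) for the 8 tested genes, with black lines for the 95% interval, filled circles for called genes, blue bars for the range with each library left out and orange bars for the range over the other settings. *Areg*, *Hbegf* and *Tgfa* are the called genes, and dotted lines mark the fold change of 0.5 set for a call.

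Among the receptors, *Erbb2* (ENSMUSG00000062312, chromosome 11, 98273784 to 98299030, plus strand) had 339, 379.5 and 321 normalized counts in wild type 1, 2 and 3, against 251, 202 and 212 in mutant 1, 2 and 3. Every mutant library was below every wild type library. The log2 fold change was -0.64 (SE 0.17, 95% interval -1.01 to -0.28), and the adjusted p of 0.0106 from edgeR was just above the 0.01 set for a call. Exons of an oppositely oriented gene cover 0.173% of its exon bases. *Erbb2* was called lower with DESeq2 (adjusted p = 0.0074), by scaling to library size alone (0.0066), with no filter on low counts (0.0093) and with a filter at a mean of 50 counts (0.0095). With each library left out, its log2 fold change lay between -0.74 and -0.57, and with the gene-length correction it was -0.42, or -0.61 without the common shift.

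*Erbb3* (ENSMUSG00000018166, chromosome 10, 128004579 to 128026708, minus strand) had 163, 182 and 216 normalized counts in wild type 1, 2 and 3, against 127, 94.6 and 157 in mutant 1, 2 and 3. The groups did not overlap, but the highest mutant library came close to the lowest wild type library. The log2 fold change was -0.57 (SE 0.24, 95% interval -1.07 to -0.07; edgeR, adjusted p = 0.0822), and it was -0.44 without wild type 3. *Erbb3* is also expressed by neural crest cells, and the summed level of the 9 other neural crest markers was 11.1 to 12.5 CPM in wild type and 10.03 to 15.1 CPM in the mutants. The part of these cells in the level of *Erbb3* was not tested.

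*Egfr* (ENSMUSG00000020122, chromosome 11, 16652206 to 16818161, plus strand) had 136, 149.8 and 82.5 normalized counts in wild type 1, 2 and 3, against 165, 196 and 181 in mutant 1, 2 and 3. All mutant libraries were above all wild type libraries, with wild type 3 lowest. The log2 fold change was 0.56 (SE 0.25, 95% interval 0.04 to 1.08; edgeR, adjusted p = 0.1), and it was 0.35 without wild type 3. *Erbb4* (ENSMUSG00000062209, chromosome 1, 68078760 to 69154633, minus strand) had a single raw count in mutant 3 and 0 in each of the other libraries. A count of 0 in the 60094593 counts of the wild type libraries allows a level of up to 0.0499 CPM. This limit was computed from 3 counts and the total without TMM scaling, and it covers counting error only.

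Counts per kilobase of exon give an approximate comparison of levels between the genes. The exon lengths are from a gene model other than the one used for counting. In wild type libraries *Hbegf* was highest, at 78.4 ± 6.45 CPM per kilobase (mean ± SD, n = 3), followed by *Areg* at 10.8 ± 0.386, *Btc* at 5.69 ± 0.354 and *Tgfa* at 4.49 ± 0.563. The receptors lay below these ligands, with *Erbb2* at 3.42 ± 0.294, *Erbb3* at 1.597 ± 0.231 and *Egfr* at 0.556 ± 0.161 CPM per kilobase. This order depends on the exon lengths. By mean normalized counts in wild type, *Erbb2* (347) was above *Tgfa* (329), *Btc* (310) and *Areg* (252), while *Hbegf* was still highest. The difference between *Egfr* and *Ereg*, at 0.782 ± 0.383, was within their spread. In mutant libraries *Hbegf* reached 122 ± 4.66, *Areg* 20.6 ± 0.664 and *Btc* 6.47 ± 2.18 CPM per kilobase, and *Tgfa*, at 2.65 ± 0.416, was the next above *Erbb2*, at 2.18 ± 0.256. *Egfr* was at 0.819 ± 0.0685 there, and its difference from *Erbb3*, at 1.08 ± 0.265, was within their spread. Summed over the 6 ligand genes, the level was 100.2 ± 6.77 in wild type and 152 ± 7.10 CPM per kilobase in the mutants, while the 4 receptor genes summed to 5.57 ± 0.353 and 4.08 ± 0.346. For both sums the groups did not overlap. The exact permutation test gave a two-sided p of 0.1, below which 3 libraries against 3 cannot go. The ligand sum was mostly *Hbegf*, itself higher in every mutant library, so the order of this sum was all but fixed. The receptor sum was mostly *Erbb2* and *Erbb3*, both lower in every mutant library, so its order was all but fixed as well. The permutation test of either sum therefore adds no support.

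The make-up of the receptor and ligand RNA was compared as shares within a library, which do not depend on the scaling between libraries. *Egfr* held 11.5%, 11.4% and 6.94% of the receptor counts per kilobase in wild type 1, 2 and 3, against 17.4%, 24.1% and 19.3% in mutant 1, 2 and 3. Its mean share was thus 9.94% ± 2.60 in wild type and 20.3% ± 3.44 in the mutants, without overlap (SD, n = 3; exact permutation p = 0.1). As *Egfr* was higher and *Erbb2* and *Erbb3* were lower in every mutant library, this order was all but fixed. The permutation test of the *Egfr* share therefore adds no support. The share of *Erbb2* was 61.3% ± 2.16 in wild type and 53.5% ± 4.17 in the mutants, also without overlap (exact permutation p = 0.1). For *Erbb3* the shares overlapped, with 28.8% ± 4.75 and 26.2% ± 4.85 (exact permutation p = 0.5), and the sign of the difference turned without wild type 3.

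Among the ligands, *Hbegf* held most of the counts per kilobase in every library, between 77.4% and 79.5% in wild type and between 79.1% and 81.1% in the mutants, and its groups overlapped. *Areg* took 10.8% ± 0.730 in wild type and 13.5% ± 0.386 in the mutants, while *Tgfa* took 4.51% ± 0.785 and 1.75% ± 0.361 (n = 3; exact permutation p = 0.1 for each). The groups did not overlap for either gene. For *Tgfa* this was all but fixed, as *Tgfa* was lower and *Hbegf* and *Areg* were higher in every mutant library. *Btc* took 5.69% ± 0.278 in wild type and 4.22% ± 1.27 in the mutants, again without overlap (exact permutation p = 0.1). The difference was -0.74 percentage points without mutant 3, against -1.47 with all libraries. The mean level of *Btc* itself was not lower in the mutants, at 6.47 against 5.69 CPM per kilobase. The sum of the 6 ligands, by which the share is divided, was 152 against 100.2.

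**Figure D3:**
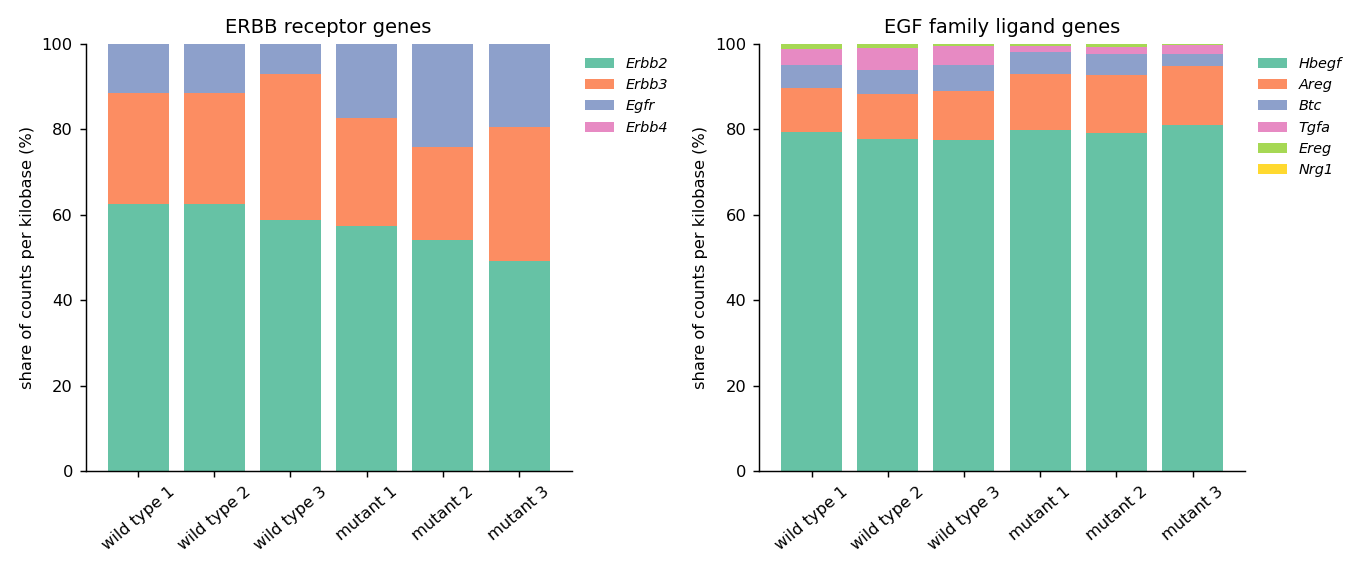
Share of each gene (vertical axis, in percent) in the summed counts per kilobase of the 4 receptor genes (left) and of the 6 ligand genes (right) in each library. The *Egfr* part of the receptor bars is between 6.94% and 11.5% in wild type and between 17.4% and 24.1% in the mutants, and *Hbegf* makes up 77.4% or more of every ligand bar.

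Ratios of counts within a library, chosen after the values were seen, set pairs of these genes against each other. The *Areg* to *Tgfa* ratio was 0.872, 0.647 and 0.808 in wild type 1, 2 and 3, against 2.89, 2.63 and 2.04 in mutant 1, 2 and 3. These are ratios of counts, and per kilobase of exon *Areg* was above *Tgfa* in both groups, as given above. The log2 ratio differed by 1.70 between the groups, with SDs of 0.22 in wild type and 0.26 in the mutants. For *Egfr* to *Erbb2* the ratio was 0.401, 0.395 and 0.257 in wild type 1, 2 and 3, against 0.658, 0.968 and 0.854 in mutant 1, 2 and 3, a difference of 1.25 on the log2 scale. The *Erbb2* to *Erbb3* ratio overlapped between the groups, with a difference of -0.06 on the log2 scale (SDs 0.28 and 0.35). The *Areg* to *Hbegf* ratio was 0.0644 to 0.0756 in wild type and 0.0828 to 0.0879 in the mutants, a difference of 0.29 on the log2 scale (SDs 0.12 and 0.043). With the gene-length correction the fitted log2 fold changes of *Areg* and *Hbegf* were closer, at 0.86 and 0.73. Without its common shift they were 0.66 and 0.54, against 0.93 and 0.63 with no such correction. Of 8 pairs compared, 6 did not overlap, but in 4 of these 1 gene was higher and the other lower in every mutant library, which all but fixes the order of the ratios. The ratios are therefore given as a description, with no test.

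*Epgn*, *Ereg*, *Areg* and *Btc* lie side by side on chromosome 5, where the starts of *Epgn*, *Ereg* and *Btc* are at -112.2, -65 and 263.3 kb from that of *Areg*. Of 3 other tested genes with a start within 250 kb of any of the 4, 1 was called. This was *Cxcl1*, a chemokine gene, which had 67.2 normalized counts in wild type and 174 in the mutants (means, n = 3; log2 fold change 1.37, SE 0.24; edgeR, adjusted p = 7.6e-04). Its start is at -248 kb from that of *Areg*, and *Ereg* and *Mthfd2l*, which lie between them, were not called (*Mthfd2l*, named after its values were seen, had a log2 fold change of -0.068, SE 0.13). The *Areg* to *Ereg* ratio overlapped between the groups, at 2.79 to 8.53 in wild type and 6.2 to 18.3 in the mutants. The difference between the changes of these neighbours is thus within the spread of *Ereg*. *Areg* to *Btc* ratios were 0.78 to 0.836 in wild type and 1.11 to 2.14 in the mutants, without overlap.

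Windows of the same size around the other genes were examined after the values were seen. *Grb7*, whose start is 33.9 kb downstream of that of *Erbb2*, encodes an adaptor protein that binds activated ERBB2. It had 5099, 5359 and 4629 normalized counts in wild type 1, 2 and 3, against 3296, 3390 and 3539 in mutant 1, 2 and 3, and it was called lower (log2 fold change -0.56, SE 0.08; edgeR, adjusted p = 6.9e-05). *Pgap3*, on the other side of *Erbb2*, was not called (log2 fold change -0.62, SE 0.23; edgeR, adjusted p = 0.0559). *Cdk12*, farther away, was called higher (log2 fold change 0.60, SE 0.12; edgeR, adjusted p = 0.0023). The other tested genes of this window were not called. Their log2 fold changes ran from -0.46 (*Ormdl3*, SE 0.25) to 0.68 (*Zpbp2*, SE 0.45). Over all 10 windows, 52 other genes were tested, of which 2 were called higher and 3 lower, or 9.62% in all, beside 8.62% of all tested genes. The 2 others called lower, *Ankhd1* (log2 fold change -0.57, SE 0.12) and *Apbb3* (log2 fold change -0.94, SE 0.24), lie near *Hbegf*, which was called higher.

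**Figure D4:**
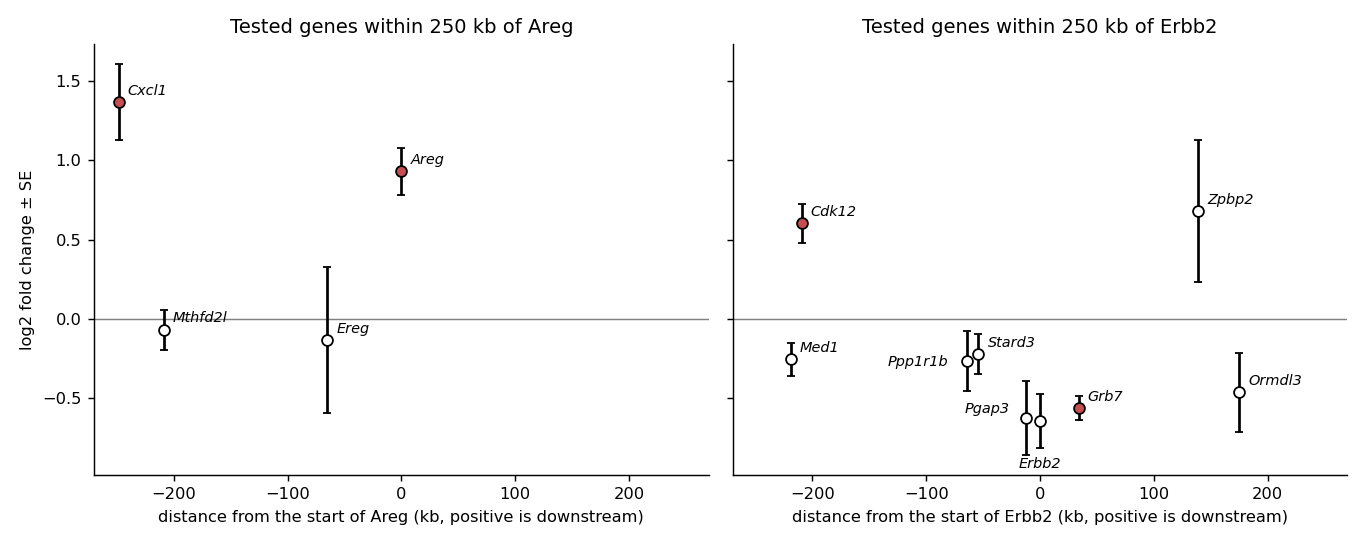
Log2 fold change ± SE (vertical axis) of tested genes against the distance of their starts from that of *Areg* (left) or *Erbb2* (right) in kilobases, with filled circles for called genes. *Areg* and *Cxcl1* are called higher with *Ereg* and *Mthfd2l* near 0 between them. *Pgap3*, *Erbb2* and *Grb7* lie at -0.62, -0.64 and -0.56, and of these only *Grb7* is called. The other genes of the right panel lie between -0.46 (*Ormdl3*) and 0.68 (*Zpbp2*).

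A list of 64 other genes of the EGFR pathway was examined in the same fit, from other ligands to genes induced by signalling. Of these, 60 were tested, 0 were called higher and 4 were called lower, beside 2.78% and 5.83% of all tested genes. At an unadjusted p under 0.05, edgeR gave 4 higher and 18 lower of the 60, beside 18.6% and 21.6% of all tested genes. DESeq2 called 0 higher and 4 lower, and these were the 4 called by edgeR, so that it called no gene in the groups below where edgeR called none. The median log2 fold change of the list was -0.13, beside -0.04 over all tested genes. With the gene-length correction, 1 gene of the list was called higher and 1 lower, without its common shift 0 were called higher and 5 lower, and by library size scaling alone, 7 were called lower.

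None of the 5 genes for the shedding of ligands was called by edgeR. At an unadjusted p under 0.05, 0 were higher and 1 was lower, beside 18.6% and 21.6% of all tested genes. The smallest p of the 5 was that of *Rhbdf1*, which encodes an inactive rhomboid that regulates the protease ADAM17. *Rhbdf1* had 771 to 971 normalized counts in wild type and 574 to 687 in the mutants (log2 fold change -0.49, SE 0.13; edgeR, adjusted p = 0.0089), past the adjusted p but under the fold change set for a call. Of 11 adaptor genes, only *Grb7* was called, with the values given above, beside 5.83% of all tested genes called lower.

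In the cascade from RAS to ERK, 0 of 10 genes were called by edgeR. At an unadjusted p under 0.05, 1 was higher and 2 were lower, beside 18.6% and 21.6% of all tested genes. Of 10 genes of the PI3K and AKT branch, 2 were called lower, beside 5.83% of all tested genes. *Pik3r2*, a regulatory subunit of PI3K, had 860.1 to 1139 normalized counts in wild type and 558 to 692 in the mutants (log2 fold change -0.74, SE 0.13; edgeR, adjusted p = 8.0e-04). *Akt1*, a kinase activated by PI3K, had 5370.3 to 6787 in wild type and 3464 to 4388 in the mutants (log2 fold change -0.64, SE 0.10; edgeR, adjusted p = 2.9e-04). With the gene-length correction *Akt1* and *Grb7* had log2 fold changes of -0.42 and -0.38 and were not called, while without its common shift they had -0.62 and -0.57 and were called.

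**Figure D5:**
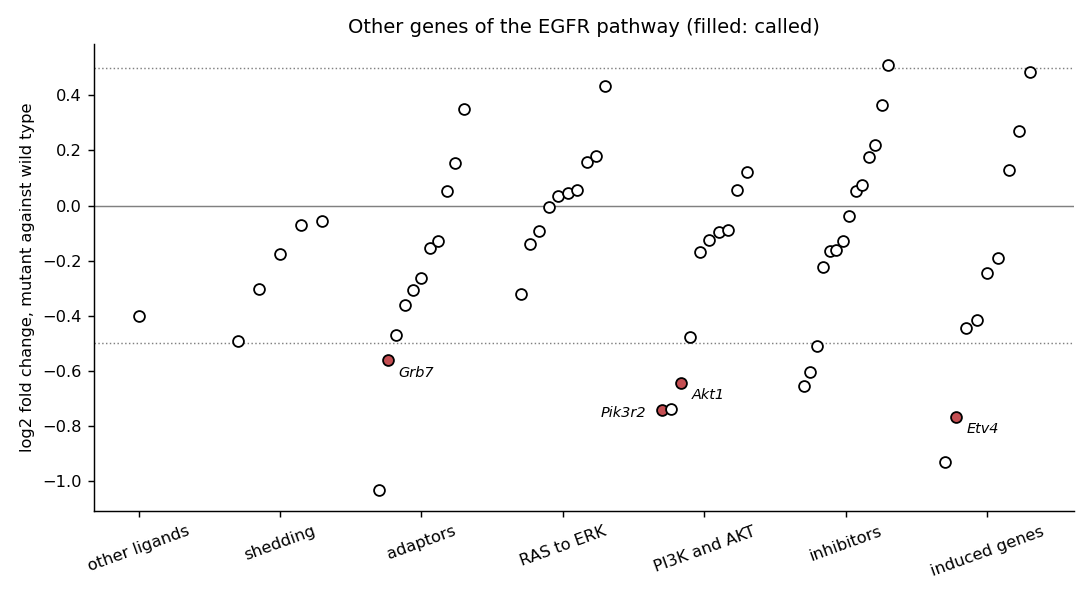
Log2 fold change of mutant against wild type (vertical axis) for the 60 tested genes of the EGFR pathway list, grouped by role, with filled circles for the called genes *Grb7*, *Pik3r2*, *Akt1* and *Etv4* and dotted lines at the fold change of 0.5 set for a call. The 4 called genes lie below 0.

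Of 14 inhibitors of the pathway, 0 were called by edgeR. At an unadjusted p under 0.05, 1 was higher and 3 were lower, beside 18.6% and 21.6% of all tested genes. The smallest p of the 14 was that of *Cblb*, a ubiquitin ligase that takes part in the degradation of activated receptors, at a log2 fold change of -0.51 (SE 0.19; edgeR, adjusted p = 0.0534). *Lrig1*, named after its values were seen, had 117, 170.2 and 156 normalized counts in wild type 1, 2 and 3, against 206, 213 and 212 in mutant 1, 2 and 3 (log2 fold change 0.51, SE 0.21; edgeR, adjusted p = 0.0781). *Lrig3*, named likewise, went the other way and was lower in every mutant library (log2 fold change -0.65, SE 0.27; edgeR, adjusted p = 0.0855). For *Lrig2*, also named likewise, the groups overlapped (log2 fold change -0.13, SE 0.22). *Errfi1*, an inhibitor that is induced by EGFR signalling and was also named after its values were seen, had overlapping groups (log2 fold change 0.05, SE 0.08).

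Of 9 genes that are induced by receptor tyrosine kinase signalling, 1 was called lower, beside 5.83% of all tested genes. This was *Etv4*, which encodes an ETS family transcription factor. It had 438, 378 and 531 normalized counts in wild type 1, 2 and 3, against 274, 284 and 234 in mutant 1, 2 and 3 (log2 fold change -0.77, SE 0.17; edgeR, adjusted p = 0.0036). The call of *Etv4* was lost without wild type 1 (adjusted p = 0.0137), wild type 3 (0.013), mutant 1 (0.0129) or mutant 3 (0.0197). With the gene-length correction the adjusted p was 0.0119, and without its common shift the call was kept (0.003). At an unadjusted p under 0.05, edgeR gave 1 gene of this group higher and 5 lower, beside 18.6% and 21.6% of all tested genes. *Etv5*, a close relative of *Etv4* named after its values were seen, had 120, 162 and 156 normalized counts in wild type 1, 2 and 3, against 82.7, 66.9 and 79.5 in mutant 1, 2 and 3 (log2 fold change -0.93, SE 0.25; edgeR, adjusted p = 0.013). *Fos*, named after its values were seen, was lower in every mutant library (log2 fold change -0.44, SE 0.07), and *Egr1*, named likewise, was higher in every mutant library, though barely so in mutant 2 (log2 fold change 0.27, SE 0.08), both below the fold change set for a call. The rest of the group is also named after its values were seen. *Ier3* was lower (-0.41, SE 0.18) and *Fosl1* higher (0.49, SE 0.40) in every mutant library. The groups overlapped for *Phlda1* (-0.19, SE 0.08), *Myc* (0.13, SE 0.08) and *Ccnd1* (-0.25, SE 0.13).

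The genes whose profile over the 6 libraries was most like that of *Hbegf* were sought among 12493 other tested genes. Likeness was the root-mean-square difference between log2 CPM values centred on each gene's mean. The closest were *Mrs2*, *Tagap1* and *Tiparp*, at 0.0586, 0.0588 and 0.0594 on the log2 scale. *Tiparp*, an ADP-ribosyltransferase gene, had mean normalized counts of 1955 in wild type and 2998 in the mutants, *Mrs2*, a mitochondrial magnesium channel gene, 404 and 635, and *Tagap1* 505 and 757.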

How the data were processed

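RNA-sequencing libraries of 500 sorted cells each were made by the authors with the SMARTer v4.0 kit and 15 cycles of amplification, without molecular identifiers being described, so that a limit from counts covers counting error only. The authors mapped reads with STAR 2.5.2b to mm9, ran featureCounts 1.5.1 on uniquely mapped reads with a UCSC gene model, and deposited the resulting raw counts without normalization. Use of strand, litter and genetic background are not given in the sources used here. The series names biological replicates without saying whether each was a separate embryo, so p-values may measure technical spread in part. The chi-square of the counts between libraries of a group was 6.34 to 18.6 per gene, above sampling noise, and each library was used as a replicate. The authors' own analysis used DESeq2 1.18.1.

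Groups were taken from the genotype labels. The test was that of edgeR 4.0.16 under R 4.3.3 (TMM normalization, filterByExpr, quasi-likelihood test, Benjamini-Hochberg adjustment over 12501 genes). SE is the log2 fold change divided by the root of F. Normalized counts are on the scale of the geometric mean library. Shares and sums were compared with exact permutation tests. Gene models, positions and exon lengths are from GENCODE vM1 on mm9, which names 95% of the tested genes. The list gene *Hras* was found under *Hras1*. The alternatives were DESeq2 1.42.0, RLE or library size scaling, a gene-length correction by loess (span 0.5), with and without its median, a block for replicate number, other filters and thresholds, and fits that each left out 1 library. The genes named outside the 10 were each called gene of the pathway list or, where a group had none, that with the smallest p, called neighbours, and the 3 profiles nearest to the gene with the smallest p. One gene that this rule names is not reported here. Other names are marked as chosen after values were seen. The members and lists were chosen with earlier results of these data known.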

Additional observations from a re-analysis of the deposited data

How the results depend on the processing

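*Areg* and *Hbegf* were called higher under all 14 alternative fits run for each gene, and 2 of the 10 genes were called higher at both other thresholds. The count of genes called lower was 1, and it was 2 with DESeq2, by library size scaling alone, without a filter on low counts, with the filter at a mean of 50 and at an adjusted p under 0.05, and 0 with the gene-length correction. It lay between 0 and 1 with each library left out. In the pathway list, 1 gene was called higher and 1 lower with the gene-length correction, 1 higher with no minimum fold change, and 7 lower with library size as the only scaling or at an adjusted p under 0.05, against 0 and 4. Library size as the only scaling shifted the median of all genes by -0.11 on the log2 scale and left 17.3% of all calls higher, against 32.3%. The gene-length correction shifted it by 0.14 and gave 66.6% higher. With its own median taken out, that correction shifted the median by -0.051 and gave 25.5% higher, with 2 of the 10 genes called higher and 1 lower, and 0 and 5 of the pathway list. *Ereg* changed sign with the gene-length correction (0.089, but -0.10 with its median taken out), without wild type 1 (0.24) and without mutant 3 (0.22), and lay between -0.45 and 0.24 with each library left out. No other of the 8 genes did. The cause was not tested.

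By raw counts in place of counts per kilobase, the share of *Egfr* among receptors differed by 15.8 percentage points (10.3 per kilobase), and the ligand shares of *Areg*, *Hbegf* and *Tgfa* by 1.65, 4.79 and -4.32 (2.74, 1.83 and -2.76 per kilobase). With each library left out, the difference in the share of *Erbb3* lay between -5.22 and 0.16, the latter without wild type 3. The single called gene beside *Epgn*, *Ereg*, *Areg* and *Btc* remained 1 within 500 kb and with each library left out. Same-numbered libraries had correlations of their deviations of 0.0011, -0.0445 and -0.0209, against -0.0131 to 0.0333 for the other pairs of mutant and wild type libraries. These values show no pairing by number. Being taken over all tested genes, they cannot exclude a shared litter or preparation that acts on few genes. With a replicate block, 2 of the 10 genes were called higher and 1 lower, and 0 and 4 of the pathway list, and the block changed no call among the genes named in the fits. *Erbb4* and *Nrg1* had too few counts to test.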
